A study of Mus musculus with 117 samples.

Results

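Tenascin-C, periostin, thrombospondin 2, versican, fibronectin, SPARC and latent TGF-beta binding protein 2 were followed across 117 microarray samples of normal cells and tumours from C57BL/6 mice. The set was listed by name: 8 genes (Tnc, Fn1, Postn, Thbs1, Thbs2, Sparc, Vcan and Ltbp2), of which 7 had a probe set annotated to that gene alone, among 17097 genes measured in all. Thbs1 was not analysed here. Where a gene had several such probe sets, the one with the highest mean over the 117 arrays stood for it. All 7 measured genes were bright enough to be tested in every comparison, which asked for 3 or more arrays with a signal over that array's median. On GRCm38.p6 the genes lie at chr4:63959785-64047015 (Tnc), chr1:71585473-71653280 (Fn1), chr3:54359267-54391041 (Postn), chr17:14665500-14694262 (Thbs2), chr11:55394159-55420080 (Sparc), chr13:89655309-89743027 (Vcan) and chr12:84783212-84876558 (Ltbp2).

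Matricellular proteins are secreted into the extracellular matrix but act mainly on cells, by binding integrins, growth factors and other matrix proteins, rather than as load-bearing fibres. Most are low in resting adult tissue and high in development, wound repair and the stroma around carcinomas, where fibroblasts and pericytes are their usual source. Fibronectin is the fibrillar scaffold on which many of them assemble, and hepatocytes also secrete it into plasma.

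The series asks whether cancers arise from adult tissue stem cells marked by Prom1, the gene of prominin-1. Normal tissue was broken down to single cells and split on antibody-coated magnetic beads: 51 samples in all. Prostate gave 3 Prom1-positive and 5 Prom1-negative samples, lung 3 and 7, intestine 3 and 5, liver 4 and 7, stomach 3 and 4, uterus 4 and 3. The 66 tumours were frozen as pieces without sorting: 11 gastric, 10 prostatic and 9 uterine adenocarcinomas, 13 hepatocellular carcinomas, 14 bronchial papillary adenomas, 6 skin squamous cell carcinomas and 3 B-cell lymphomas. The series mentions conditional Prom1 mutants, but the labels give no genotype, age or treatment for a sample, nor whether different animals supplied the samples of a group, and p-values therefore cover only sample-to-sample spread. Intestine had no tumour, and skin tumours and lymphomas had no normal cells to be set against.

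Values are log2 signals, on which a difference of 1 is a doubling, and levels are compared between groups for 1 gene at a time, never between genes. Array medians lay between 3.63 and 4.01, and a level under them can be background. Some sorted samples were dim: 3 of stomach, 2 of liver and 1 of lung had an upper quartile below 6, and 1 of them, a stomach Prom1-negative sample, correlated with its group at 0.711 on average. In these bulk samples fewer cells of a type and less RNA per cell cannot be told apart. Precision is limited by how many arrays a group has.

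RefSeq promoters (GRCm38.p6, 250 bases before to 50 after a start) were found for 6 of the 7 genes. They are shown for Tnc and Ltbp2, whose tumour levels exceeded those of both sorted fractions in stomach, prostate and uterus, and for Postn and Vcan, which were not called higher than in Prom1-negative cells in tumours of prostate or uterus. Each runs 5′ to 3′ on the strand of its gene, minus for Tnc, Ltbp2 and Vcan and plus for Postn. The first of 2 listed starts is used for Tnc and the second of 2 for Postn. Capitals mark matches, on either strand, to the TATA box letters TATAAA, to those of the GC box, GGGCGG, and to CCAAT, and no match shown overlaps another.
Tnc, chr4:64046966-64047265: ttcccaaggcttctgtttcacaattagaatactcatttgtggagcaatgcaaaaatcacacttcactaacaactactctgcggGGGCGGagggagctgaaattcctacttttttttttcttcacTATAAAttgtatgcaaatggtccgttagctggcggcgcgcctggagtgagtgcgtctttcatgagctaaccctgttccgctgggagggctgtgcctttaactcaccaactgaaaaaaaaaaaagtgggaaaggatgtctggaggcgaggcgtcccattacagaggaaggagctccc
Ltbp2, chr12:84876442-84876741: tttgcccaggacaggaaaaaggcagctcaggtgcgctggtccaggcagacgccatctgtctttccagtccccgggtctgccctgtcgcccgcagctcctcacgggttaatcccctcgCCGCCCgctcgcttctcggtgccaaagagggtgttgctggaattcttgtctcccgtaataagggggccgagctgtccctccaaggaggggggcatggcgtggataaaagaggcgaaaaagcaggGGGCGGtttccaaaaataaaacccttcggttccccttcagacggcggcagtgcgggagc
Postn, chr3:54360857-54361156: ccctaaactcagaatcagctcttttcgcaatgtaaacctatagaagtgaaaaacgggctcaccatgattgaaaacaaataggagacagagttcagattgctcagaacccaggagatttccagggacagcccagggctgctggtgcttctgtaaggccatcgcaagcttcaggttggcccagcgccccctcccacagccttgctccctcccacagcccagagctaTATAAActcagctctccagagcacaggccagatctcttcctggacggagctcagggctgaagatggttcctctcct
Vcan, chr13:89742463-89742762: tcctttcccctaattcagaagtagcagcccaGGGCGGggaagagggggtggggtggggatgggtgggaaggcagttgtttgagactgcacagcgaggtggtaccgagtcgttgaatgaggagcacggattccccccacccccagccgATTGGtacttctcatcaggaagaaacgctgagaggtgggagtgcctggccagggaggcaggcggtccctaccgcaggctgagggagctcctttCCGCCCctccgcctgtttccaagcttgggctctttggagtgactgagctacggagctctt

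TATAAA stands at position -126 from the Tnc start and at -26 from the Postn start, the place of a classical TATA box in the latter. It occurs in 13.6% of 32851 RefSeq promoters of the same length. From the other listed start of Tnc, TATAAA lies at -205. The promoter of the other listed start of Postn has 0 TATAAA matches and 1 CCAAT match. Ltbp2 and Vcan have 2 GC box matches each and Tnc has 1, against 35.7% of promoters with any. Among the promoters shown, CCAAT was found in that of Vcan, and it occurs in 37.4% of promoters. Thbs2, not shown, has 1 TATAAA and 2 CCAAT matches. Neither GGAATG, a TEAD core, nor TGANTCA, an AP-1 site, both searched on both strands, was found in the promoters of the 6 genes, and they occur in 14.7% and 7.81% of promoters. A match is a string of letters, not a site shown to be used.

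The 7 tumour types fell into 2 sets by their matricellular levels. Uterine, gastric and prostatic adenocarcinomas and skin squamous cell carcinomas were high for Tnc, Thbs2 and Vcan. Bronchial adenomas and hepatocellular carcinomas were low for these genes, and lymphomas were low for Tnc and Vcan. For Thbs2 the lymphoma mean lay between the sets, beyond the spread on each side. All 7 genes differed between types in limma's F test, where 95.1% of the 13456 genes tested did. Adjusted p ran from 3.79e-21 for Tnc to 1.74e-06 for Sparc.

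Tnc encodes tenascin-C, a hexameric glycoprotein that loosens cell adhesion to fibronectin. Its level was 10.03 ± 1.37 (SD, n = 9) in uterine adenocarcinomas, where the lowest, median and highest tumours stood at 8.15, 10.02 and 11.94. It was 9.61 ± 0.98 (SD, n = 11) in gastric adenocarcinomas (7.41, 9.51 and 10.87), 9.39 ± 1.15 (SD, n = 6) in skin carcinomas (8.19, 9.44 and 11.33) and 8.75 ± 1.71 (SD, n = 10) in prostatic adenocarcinomas (4.73, 9.32 and 10.44). These 4 types did not differ from their neighbours in this order by more than their spread. The next level, in bronchial adenomas, was 4.0 lower at 4.75 ± 0.98 (SD, n = 14; 2.90, 5.09 and 6.21), a gap larger than either SD. Lymphomas had 3.43, 6.11 and 4.30, and hepatocellular carcinomas 4.06 ± 0.86 (SD, n = 13; 2.66, 4.09 and 6.07), with 7 of 13 above the median of their arrays. Every tumour of the high set except prostatic tumour 10, at 4.73, exceeded every tumour of the low set.

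Thbs2 encodes thrombospondin 2, an inhibitor of angiogenesis that also clears matrix metalloproteases. It had the same 4 leading types: uterine 9.15 ± 1.67 (SD, n = 9; lowest 6.04, median 9.33, highest 11.82), gastric 8.11 ± 1.24 (SD, n = 11; 5.25, 8.12 and 10.20), skin 7.97 ± 1.22 (SD, n = 6; 6.51, 7.59 and 9.86) and prostatic 7.64 ± 2.17 (SD, n = 10; 4.45, 8.37 and 10.14). Lymphomas followed at 4.74, 4.52 and 6.27, a range that the lowest uterine, gastric and prostatic tumours reached. Hepatocellular carcinomas were lower than lymphomas beyond the spread, at 3.815 ± 0.838 (SD, n = 13). In bronchial adenomas Thbs2 was at 3.39 ± 0.27 (SD, n = 14), and only 1 of 14 stood above the median of its array, so its level there can be background.

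Vcan encodes versican, a large chondroitin sulphate proteoglycan that binds hyaluronan. It was 8.71 ± 1.20 (SD, n = 9) in uterine, 8.11 ± 1.04 (SD, n = 11) in gastric and 7.52 ± 1.55 (SD, n = 10) in prostatic adenocarcinomas, then 6.27 ± 1.13 (SD, n = 6) in skin carcinomas. The gap from skin carcinomas to bronchial adenomas, at 3.92 ± 1.06 (SD, n = 14), was larger than the spread. The means of bronchial adenomas, hepatocellular carcinomas (3.68 ± 1.03, SD, n = 13) and lymphomas (3.44 ± 0.34, SD, n = 3) did not separate beyond theirs.

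Postn encodes periostin, a fasciclin-domain protein that links tenascin-C and collagen. It was graded rather than split: 10.96 ± 1.21 (SD, n = 9) in uterine adenocarcinomas, 10.41 ± 0.87 (SD, n = 6) in skin carcinomas, 10.11 ± 0.58 (SD, n = 11) in gastric and 9.67 ± 0.95 (SD, n = 10) in prostatic adenocarcinomas. It then fell beyond the spread at each step, to 8.03 ± 0.95 (SD, n = 14) in bronchial adenomas, 6.75 ± 1.15 (SD, n = 13) in hepatocellular carcinomas and 4.68 ± 1.36 (SD, n = 3) in lymphomas.

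Fibronectin ordered the types differently. Fn1 was 12.24 ± 0.51 (SD, n = 11) in gastric adenocarcinomas and 12.07 ± 0.54 (SD, n = 13) in hepatocellular carcinomas, which were among the lowest types for Tnc, Vcan and Postn. Against the mean of the other 6 types, hepatocellular carcinomas were higher in Fn1 by 1.78 (SE 0.22, adjusted p = 2.78e-10) and lower in the other 6 genes, from -0.92 for Sparc to -3.80 for Tnc. The Sparc call was lost with the upper quartile of each array as covariate (-0.414, adjusted p = 0.21). Among all genes 25% were called higher and 41.3% lower in that comparison. Uterine and prostatic adenocarcinomas did not differ from these 2 types beyond the spread, at 11.52 ± 0.87 (SD, n = 9) and 11.32 ± 0.92 (SD, n = 10). Bronchial adenomas (9.79 ± 0.57, SD, n = 14) and skin carcinomas (9.39 ± 1.01, SD, n = 6) stood lower, and lymphomas lowest, at 6.90, 8.10 and 7.31.

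Sparc, a collagen- and calcium-binding glycoprotein, was bright in all 7 types, from 9.62 ± 0.36 (SD, n = 3) in lymphomas to 11.94 ± 0.70 (SD, n = 9) in uterine adenocarcinomas, and no 2 neighbours in the order differed beyond their spread. Ltbp2, a fibrillin-binding protein of elastic microfibrils, was 8.05 ± 1.64 (SD, n = 10) in prostatic, 7.88 ± 0.71 (SD, n = 9) in uterine and 7.43 ± 1.37 (SD, n = 11) in gastric adenocarcinomas. Bronchial adenomas followed at 7.12 ± 0.76 (SD, n = 14) and lymphomas at 4.75, 7.30 and 6.61, each within the spread of its neighbour in the order. Among neighbours, only the step from skin carcinomas (5.95 ± 1.13, SD, n = 6) to hepatocellular carcinomas (4.37 ± 1.26, SD, n = 13) exceeded the spread.

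Set against the mean of the other 6 types, uterine adenocarcinomas were higher in 7 of the 7 genes, with a median difference of 2.69 against 0.005 over all genes, where 17.3% of all genes were called higher. Gastric and prostatic adenocarcinomas were higher in 6 each (23.8% and 22.1% of all genes), skin carcinomas in 3 and lower in Fn1 (19.2% and 22.5%), and bronchial adenomas and lymphomas lower in 5 each (34.1% and 22.3%). The call for Postn in bronchial adenomas (-0.73, adjusted p = 0.034) was lost without any of bronchial tumours 2, 6, 11, 13 or 14 or lymphoma 2 (adjusted p = 0.0676, 0.0637, 0.0534, 0.0586, 0.0879 and 0.0844). That for Sparc in gastric tumours (0.63, adjusted p = 0.0324) was lost without gastric tumour 2, 4, 5 or 6 (adjusted p = 0.0527, 0.0618, 0.0587 and 0.0524), and that for Thbs2 in skin carcinomas (1.76, adjusted p = 0.00762) without skin tumour 3 (1.38, adjusted p = 0.0542). Sparc in prostatic adenocarcinomas (0.54, adjusted p = 0.092) was called without prostatic tumour 8 or 10 (0.74 and 0.79, adjusted p = 0.0188 and 0.00979), and Ltbp2 in gastric tumours (0.83, adjusted p = 0.0747) without gastric tumour 10 (1.10, adjusted p = 0.0183). Without the lymphomas the prostatic calls for Fn1 and Postn were lost (0.32 and 0.42, adjusted p = 0.307 and 0.321), as were those for uterine Fn1 (0.56, adjusted p = 0.0835) and gastric Sparc (0.40, adjusted p = 0.196). With the upper quartile as covariate the prostatic calls for Postn, Thbs2 and Ltbp2 were lost (adjusted p = 0.0676, 0.146 and 0.101), as were uterine Ltbp2 (1.022, adjusted p = 0.069), gastric Sparc (0.303, adjusted p = 0.364) and bronchial Postn (-0.537, adjusted p = 0.162), while Sparc and Ltbp2 were called higher in bronchial adenomas (0.552 and 0.891, adjusted p = 0.0448 and 0.0412).

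**Figure D1:**
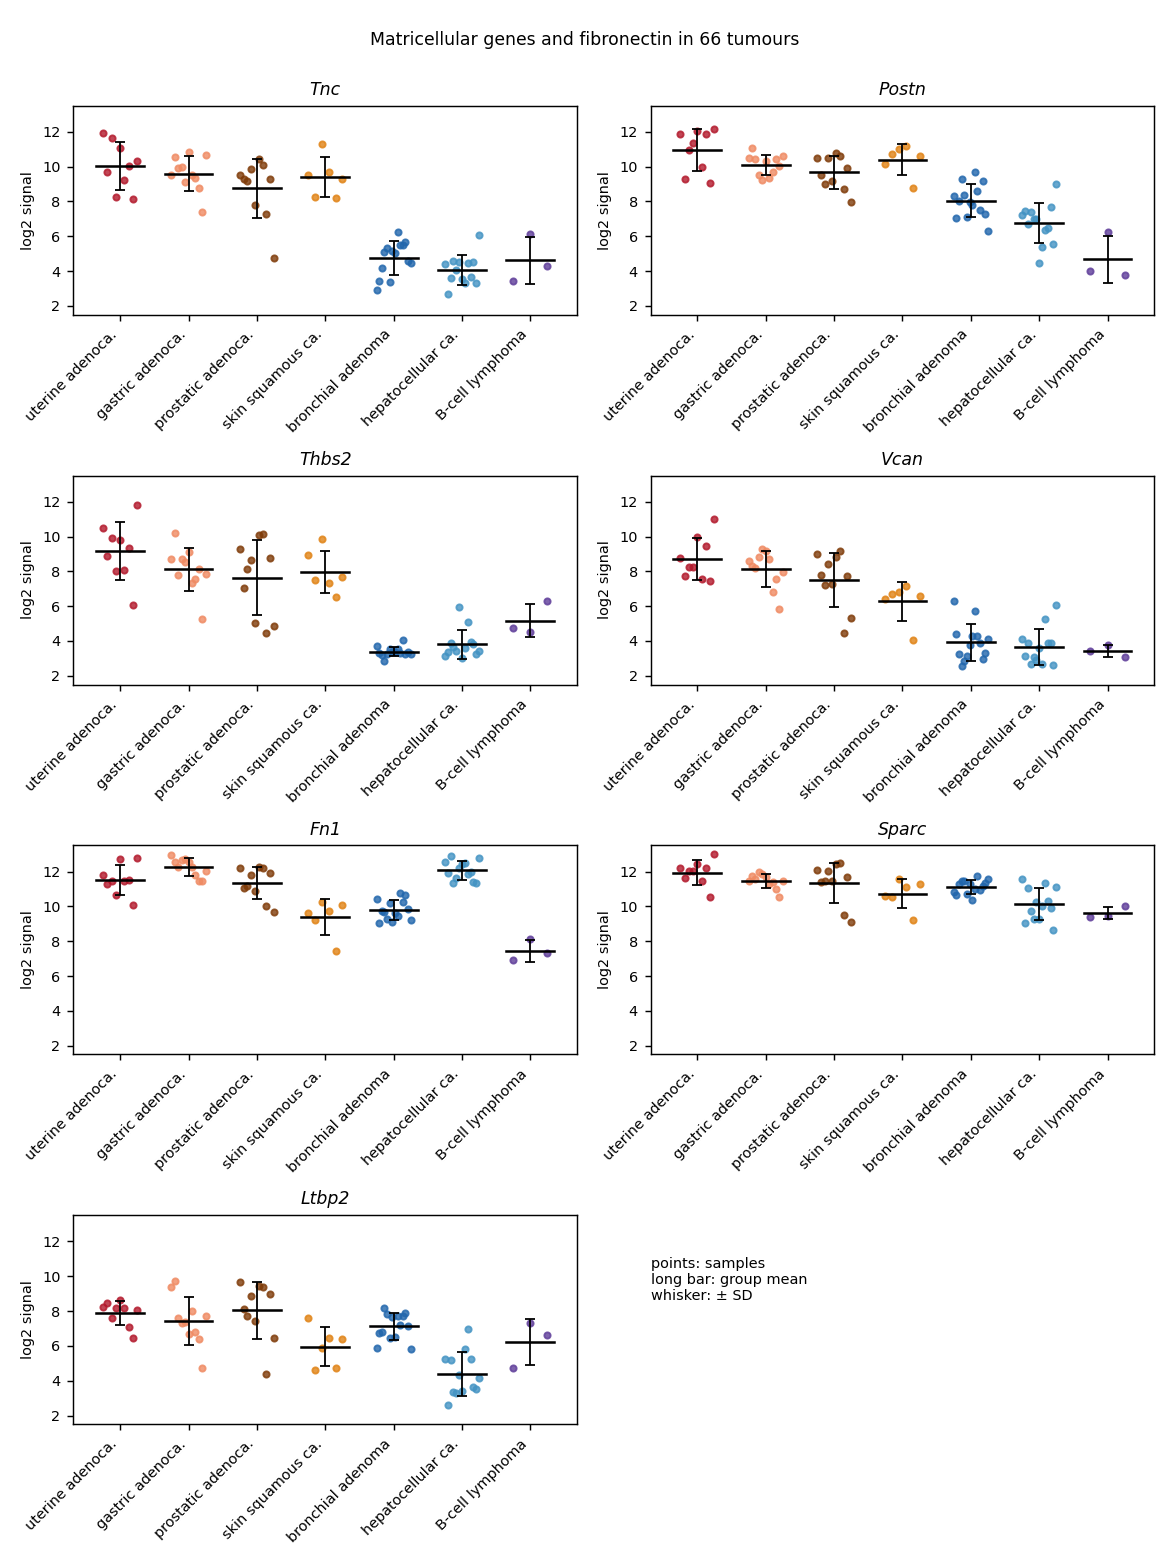
Log2 signal of 7 genes (panels) in 66 tumours, 1 point a tumour, by type, with the mean and SD of each type. For Tnc the 4 types on the left have means from 8.75 to 10.03 and the 3 on the right from 4.06 to 4.75, while Fn1 is as high in hepatocellular carcinomas (12.07) as in gastric adenocarcinomas (12.24).

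Within prostatic adenocarcinomas the genes were low together in the same tumours. Tumours 8 and 10 had Vcan at 4.45 and 5.34, against 7.24 to 9.18 in the other 8. Fn1 stood at 10.01 and 9.70 (others 10.90 to 12.26), Sparc at 9.50 and 9.12 (others 11.42 to 12.47) and Ltbp2 at 4.41 and 6.43 (others 7.42 to 9.66). For Thbs2, tumour 5 joined them: 4.45 in tumour 8, 4.87 in tumour 10 and 5.02 in tumour 5, against 7.06 to 10.14 in the remaining tumours. Several other lists were low in the same tumours. The mean log2 signal of 7 fibrillar collagen genes was 5.35 and 5.61 in tumours 8 and 10 and between 7.09 and 9.40 in the others. Endothelial markers stood at 4.59 and 5.04 against 5.24 to 6.63, macrophage markers at 6.95 and 7.39 against 7.42 to 8.59 and neutrophil markers at 4.52 and 5.0 against 5.56 to 6.87, each below the other 8 tumours. Fibroblast markers were below the others in tumour 8 (5.49) but not in tumour 10 (6.96, others 5.55 to 7.22). Smooth muscle and pericyte markers were within the range of the others, at 8.20 and 8.79 against 6.67 to 8.98, and epithelial markers stood at 11.46 and 11.24 against 11.28 to 11.73. Tumour 10 also had the highest differences of 3′ and 5′ control probe sets among prostatic tumours (0.979 for Gapdh and 1.05 for Actb), a measure of RNA integrity, and the lowest mean correlation with its group (0.934). The part of these in the levels was not tested.

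The pairwise correlations put a number on this. With the mean of each type subtracted, r over 66 tumours lay between 0.344 (Postn with Ltbp2) and 0.717 (Fn1 with Sparc) for the 21 pairs, with a median of 0.602. For Fn1 and Sparc the permutation p was 1e-05, the smallest that 100000 permutations within types can give (adjusted over 21 pairs, 1.62e-05), and Spearman's rho was 0.511 (permutation p = 0.00017, adjusted p = 0.000714). Without the 2 tumours farthest from the median of Fn1, r was 0.638. By Pearson's r 21 of 21 pairs had an adjusted p under 0.05, and by Spearman's rho 14.

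The strength differed by type, as a description with no test of the difference. Over the 21 pairs the median r was 0.905 in prostatic adenocarcinomas (0.756 to 0.970, n = 10), 0.704 in uterine (0.232 to 0.923, n = 9) and 0.666 in gastric adenocarcinomas (-0.115 to 0.844, n = 11). It was 0.659 in skin carcinomas (0.313 to 0.981, n = 6) and 0.396 in hepatocellular carcinomas (-0.168 to 0.753, n = 13). In bronchial adenomas it was 0.051 (-0.449 to 0.747, n = 14), and 14 of 21 pairs were above 0. Without prostatic tumours 8 and 10 the prostatic median was 0.889 (0.765 to 0.976, n = 8), a comparison added after the data were seen. In gastric adenocarcinomas Postn stood apart, with r of -0.12 with Vcan, -0.07 with Sparc and -0.04 with Fn1.

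**Figure D2:**
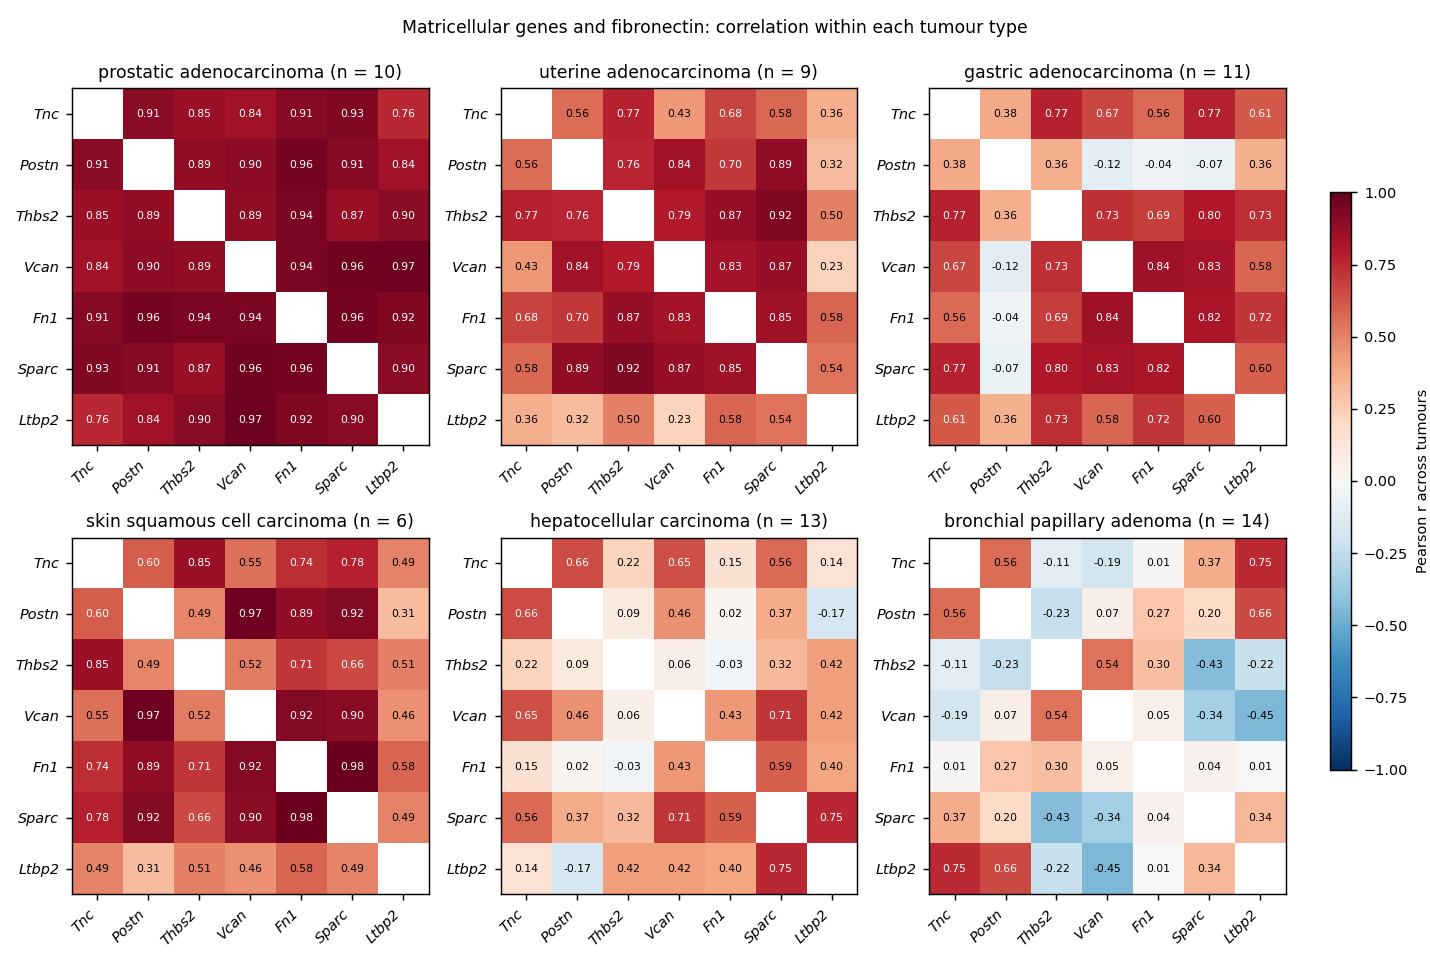
Pearson r across tumours for each pair of the 7 genes in each of 6 tumour types; the colour and the printed value give r. Every pair is at 0.756 or above in prostatic adenocarcinomas, while in bronchial adenomas r runs from -0.449 to 0.747.

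The most similar profiles were sought among 13807 genes. Over the 66 tumours with type means subtracted, Col1a1, a chain of type I collagen, was the most similar gene for Tnc (r = 0.787), Fn1 (0.730) and Sparc (0.845). For Postn it was Col5a1 (0.676), for Thbs2 Loxl3, a lysyl oxidase-like enzyme (0.835), for Ltbp2 Loxl1, another of that family (0.711), and for Vcan Fkbp7 (0.773). Over the 19 group means the most similar genes were Col4a1 for Sparc (0.983), Mir100hg for Tnc (0.960), Pcdh7 for Thbs2 (0.956), Cald1 for Fn1 (0.952), Col5a2 for Postn (0.951) and Fxyd6 for Vcan (0.950). Ltbp2 had no profile as close, with Tspo the most similar at 0.827. Tissue make-up and array quality also vary between the points of these correlations, and their part in r was not tested.

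Set against normal cells of the same organ, tumours differed most in stomach and, for a subset of the genes, in prostate and uterus. The tumour was compared with the mean of both sorted fractions, and then with each fraction alone. Freezing whole against dissociation and sorting cannot be told apart from the tumour state. Of 10 early-response genes known to rise on dissociation, 9 were lower in tumours in prostate, 7 in stomach, 9 in liver, 10 in lung and 10 in uterus. Of all genes 36.7%, 58.1%, 47.2%, 43.1% and 28.8% were called in either direction in prostate, stomach, liver, lung and uterus. Those called higher were 20.9% in prostate, 35% in stomach, 29.2% in liver and 16.4% in uterus. In lung 19.7% were called lower.

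In stomach 7 of 7 genes were higher in adenocarcinomas, with a median difference of 5.98 against 0.11 over all genes, and 35% of the 14663 genes tested were called higher. Fn1 was at 5.48, 6.79 and 5.90 in Prom1-positive and at 3.88, 4.01, 7.01 and 5.14 in Prom1-negative cells. Gastric adenocarcinomas had a lowest, median and highest value of 11.43, 12.25 and 12.94. No tumour overlapped with normal cells, and the difference was 6.71 (SE 0.35, adjusted p = 4.54e-33). Tnc differed by 6.29 (SE 0.51), Sparc by 6.15 (SE 0.40), Postn by 5.98 (SE 0.43), Vcan by 5.28 (SE 0.47), Thbs2 by 5.08 (SE 0.50) and Ltbp2 by 3.80 (SE 0.49), and none of these overlapped either. The share of all genes without overlap is not given for this or later comparisons, so lack of overlap describes single genes only. In normal stomach Thbs2 and Vcan were below the array median in 7 of 7 samples. Tnc stood above it in 0 of 3 Prom1-positive and 1 of 4 Prom1-negative samples, and Ltbp2 in 2 of 3 and 0 of 4. The differences of these genes are measured against levels that in most samples can be background.

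Several normal stomach samples were dim. Leaving out the arrays with an upper quartile under 6 gave 6.83 for Fn1, 6.77 for Sparc and 4.16 for Ltbp2. That left Prom1-positive sample 1 as the only one of its fraction. Leaving out the Prom1-negative sample that correlated least with its group gave 6.54, 6.27 and 3.85, and the differences of all 7 genes stayed called. Markers of several cell types rose with them in gastric tumours: macrophage genes 7 of 7, fibrillar collagens 5 of 7, smooth muscle and pericyte genes 5 of 6, endothelial genes 5 of 7 and fibroblast genes 4 of 7. The mean log2 signal of the fibroblast list ran from 5.20 to 6.69 in tumours and from 3.18 to 5.09 in normal stomach cells. Their part in the result was not tested.

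In prostate, tenascin-C and LTBP-2 marked the tumours against both fractions, whereas periostin, SPARC, fibronectin and versican depended on the fraction. Ltbp2 was at 3.80, 3.55 and 3.03 in Prom1-positive and at 3.62, 3.32, 3.71, 3.85 and 3.24 in Prom1-negative cells. Prostatic adenocarcinomas stood at 4.41, 8.50 and 9.66 (lowest, median and highest), above every normal sample. The difference was 4.54 (SE 0.48, adjusted p = 1.43e-13), and it was 4.50 against Prom1-negative and 4.59 against Prom1-positive cells alone. Normal Ltbp2 was above the array median in 1 of 3 Prom1-positive and 1 of 5 Prom1-negative samples, so its level there can be background.

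Tnc was at 3.89, 2.84 and 2.93 in Prom1-positive and at 3.75, 6.08, 4.73, 4.68 and 4.51 in Prom1-negative prostate cells, and the tumours stood at 4.73 to 10.44 with a median of 9.32. Only tumour 10 fell within the normal range. The difference was 4.77 (SE 0.50, adjusted p = 9.50e-14), a 27.2-fold ratio of signals, and 4.0 against Prom1-negative cells alone (adjusted p = 8.28e-09). The second, dimmer Tnc probe set gave a smaller difference, with means of 3.84 in tumours, 2.68 in Prom1-negative and 2.59 in Prom1-positive cells. Thbs2 differed by 3.19 (SE 0.50, adjusted p = 1.16e-07), and by 1.95 against Prom1-negative cells (adjusted p = 0.00411). Altogether 6 of 7 genes were called higher, where 20.9% of all genes were.

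For the other genes the reference decided the outcome. Against the mean of both fractions Postn was higher by 1.76 (adjusted p = 0.000566), Fn1 by 1.5 (adjusted p = 0.000244) and Sparc by 1.16 (adjusted p = 0.015), and Vcan differed by 0.63 (adjusted p = 0.298). Against Prom1-negative cells alone the differences were -0.60 for Postn (adjusted p = 0.371), 0.01 for Fn1 (adjusted p = 0.989) and -0.35 for Sparc (adjusted p = 0.603). Vcan was lower in tumours there, at -1.67 (SE 0.53, adjusted p = 0.00844). In that comparison 35% of all genes were called in either direction. Against Prom1-positive cells 7 of 7 were higher, where 24.6% of all genes were called in either direction, Vcan by 2.93 and Postn by 4.12. The call for Sparc was lost without Prom1-positive sample 3 (0.96, adjusted p = 0.0734). Smooth muscle and pericyte genes were higher in 5 of 6 and fibrillar collagens in 5 of 7, while 4 of 7 fibroblast markers were lower. Against the mean of both fractions 36.7% of all genes were called in either direction. Clec3b differed by -3.39 and Dpt by -2.22, both known for resting fibroblasts. Their part in the result was not tested.

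Uterus gave the same pair of genes. Tnc was at 4.52, 5.65, 3.91 and 4.57 in Prom1-positive cells, at 6.91, 6.13 and 6.75 in Prom1-negative cells and at 8.15 to 11.94 (median 10.02) in uterine adenocarcinomas, which lay above all normal samples. The difference was 4.40 (SE 0.53, adjusted p = 3.97e-11), a 21.1-fold ratio, and 3.43 against Prom1-negative cells (adjusted p = 6.24e-05). The second, dimmer Tnc probe set gave a smaller difference, with means of 5.46 in tumours, 3.13 in Prom1-negative and 2.67 in Prom1-positive cells. Ltbp2 was at 4.54, 3.39, 3.58 and 3.6, then 3.81, 3.88 and 3.69, in the 2 normal fractions and at 6.46 to 8.66 (median 8.18) in tumours, again with no overlap. It was higher by 4.10 (SE 0.51, adjusted p = 1.26e-10), and by 4.09 against Prom1-negative cells. Normal Ltbp2 was above the array median in 1 of 4 Prom1-positive and 2 of 3 Prom1-negative samples.

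Thbs2 and Postn were also called in uterus (2.66 and 1.37, adjusted p = 2.84e-05 and 0.0143), so that 4 of 7 genes were higher, where 16.4% of all genes were. Against Prom1-negative cells alone the 2 were not (1.41 and 0.30, adjusted p = 0.138 and 0.804), and Postn was not without Prom1-negative sample 3 (1.15, adjusted p = 0.0667). Fn1, Sparc and Vcan differed by 0.71, 0.16 and 0.41 (95% intervals -0.002 to 1.43, -0.66 to 0.98 and -0.56 to 1.37). Against Prom1-positive cells alone 6 of 7 genes were called higher, where 21.5% of all genes were called in either direction, including Fn1 (1.36, adjusted p = 0.013) and Vcan (1.71, adjusted p = 0.0219). A dimmer Vcan probe set went the other way, called lower in tumours against the mean of both fractions (-2.035, adjusted p = 6.19e-05). Its means were 4.33 in tumours, 5.71 in Prom1-positive and 7.01 in Prom1-negative cells. Fibroblast markers were lower in 5 of 7 in the same tumours, Dpt at -3.98 and Clec3b at -3.97. By limma 0 of the 7 fibrillar collagens were called, with Col1a2 the nearest (adjusted p = 0.0674). Against the mean of both fractions 28.8% of all genes were called in either direction. The part of the fibroblast markers in the result was not tested.

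In liver 4 of 7 genes were higher in hepatocellular carcinomas, where 29.2% of all genes were: Postn by 1.74 (SE 0.37, adjusted p = 5.82e-05), Tnc by 1.35 (SE 0.44, adjusted p = 0.00734), Ltbp2 by 0.999 (SE 0.42, adjusted p = 0.0409) and Fn1 by 0.79 (SE 0.30, adjusted p = 0.0215). The tumours overlapped with normal cells for all 4. Normal Tnc was under the array median in 11 of 11 samples (2.38 to 3.04), against 4.06 in tumours on average, and the second Tnc probe set gave a difference of -0.343. Sparc was not called (-0.38), but against Prom1-negative cells alone it was lower, at -1.20 (adjusted p = 0.00799) and the calls for Postn and Ltbp2 were lost (adjusted p = 0.066 and 0.0545). Endothelial markers were lower in 6 of 7 and macrophage markers in 6 of 7 in these tumours, where 47.2% of all genes were called in either direction. The part of these markers in the result was not tested. The call for Ltbp2 was lost without any of hepatocellular tumours 1, 3, 8, 9 or 10, Prom1-negative sample 3 or Prom1-positive sample 2, 3 or 4 (adjusted p = 0.0673, 0.065, 0.0803, 0.113, 0.0665, 0.0554, 0.0669, 0.0541 and 0.0639), and that for Fn1 without Prom1-positive sample 2 (0.68, adjusted p = 0.0702). With the upper quartile of each array as covariate the calls for Tnc, Fn1 and Ltbp2 were lost (adjusted p = 0.0842, 0.0583 and 0.0975).

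Lung ran the other way: Fn1, Postn and Vcan were lower in bronchial adenomas, at -1.05 (SE 0.31, adjusted p = 0.00333), -1.32 (SE 0.39, adjusted p = 0.0032) and -1.34 (SE 0.42, adjusted p = 0.00578), 3 of 7 genes where 19.7% of all genes were lower. Tnc differed by 0.10 (95% interval -0.81 to 0.995) and Sparc by -0.21. Fibroblast markers were lower in 5 of 7, with a median of -2.46, and endothelial markers in 6 of 7, and their part in the result was not tested. The Vcan difference was lost against Prom1-positive cells alone (-0.33, adjusted p = 0.752) and without Prom1-positive sample 2 (-1.06, adjusted p = 0.0586). With other Vcan probe sets it was not called (-0.84 and -0.323, adjusted p = 0.0723 and 0.513). The Fn1 difference was lost without Prom1-positive sample 4 (-0.65, adjusted p = 0.118). Ltbp2 (0.95, adjusted p = 0.0703) was called higher against Prom1-negative cells (1.27, adjusted p = 0.0206) and without bronchial tumour 1 or 14 or Prom1-positive sample 1 (1.04, 1.05 and 1.29, adjusted p = 0.0459, 0.047 and 0.0216).

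Averaged over 5 organs all 7 measured genes were higher in tumours, Tnc by 3.38 (SE 0.22) and Ltbp2 by 2.88 (SE 0.21) the most, where 39% of all genes were higher. The differences depended on the organ for all 7, with interaction adjusted p between 2.72e-27 for Fn1 and 6.66e-09 for Ltbp2 (77.9% of all genes). Against Prom1-negative cells alone the mean for Vcan was 0.20 (adjusted p = 0.478) and that for Ltbp2 3.05 (adjusted p = 7.20e-20).

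**Figure D3:**
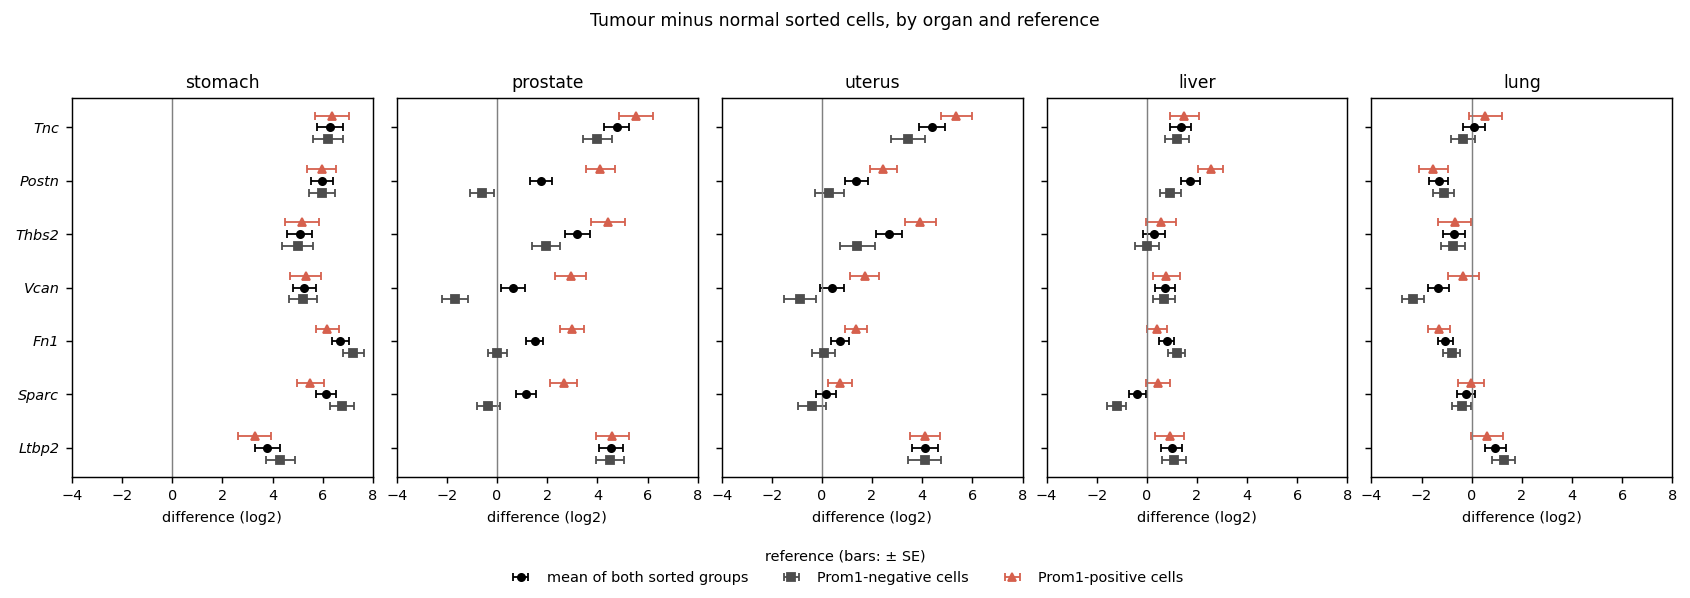
Difference in log2 signal between tumours and normal cells of the same organ (panels) for 7 genes, with the standard error, against the mean of both fractions (black circles), Prom1-negative (grey squares) and Prom1-positive cells (red triangles). In prostate Tnc and Ltbp2 are at 4.0 or above for each reference, while Vcan runs from -1.67 to 2.93.

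The split of normal cells on Prom1 asks which genes accompany the stem cell marker, and the matricellular genes lay mainly with the Prom1-negative cells of prostate and uterus. Between tissues the levels themselves were far apart: all 7 genes differed between the 6 tissues, as did 90.1% of the 14081 genes tested. Intestine was lowest or near it for each gene. Fn1 was at 3.68 to 3.90 in Prom1-positive and 2.91 to 4.55 in Prom1-negative intestinal cells, near the array median, against 8.34 to 11.67 for the group means of prostate, lung, liver and uterus.

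In prostate 5 of 7 genes were lower in Prom1-positive cells, where 5.98% of all genes were, with a median difference of -2.97 against 0.10 over all genes. Postn was at 5.73, 5.43 and 5.51 in positive and at 9.94, 10.27, 10.34, 10.50 and 10.29 in negative cells. The groups were far apart and tight, and the difference was -4.72 (SE 0.52, adjusted p = 4.33e-09).

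Vcan was at 6.34, 4.35 and 3.07 in positive and at 8.0, 9.58, 9.40, 9.43 and 9.53 in negative cells. The positive samples were uneven but below every negative one, with a difference of -4.60 (SE 0.44, adjusted p = 1.37e-10). The difference was -3.01 for Sparc (SE 0.65, adjusted p = 0.00103), -2.97 for Fn1 (SE 0.52, adjusted p = 4.41e-05) and -2.483 for Thbs2 (SE 0.35, adjusted p = 9.81e-07), also without overlap. Tnc differed by -1.53 (adjusted p = 0.0973) and was called without Prom1-negative sample 1 (-1.78, adjusted p = 0.0477), with array weights or with a block of neighbouring sample codes. Ltbp2 differed by -0.09 (95% interval -1.05 to 0.88), near background in both groups.

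Fibroblast markers were lower in the same positive prostate cells in 6 of 7, Clec3b at -5.68 and Lum at -4.93, and the mean log2 signal of the list was 5.15 to 6.36 in positive and 8.01 to 9.15 in negative samples. Of the list, 1 gene was under the array median in all 3 positive samples and 0 in all 5 negative ones. Mesothelial markers were lower in 4 of 5 and endothelial markers in 4 of 7. The difference of the 3′ and 5′ Actb control probe sets, a measure of RNA integrity, averaged 1.07 in positive and 0.745 in negative samples. The part of these in the result was not tested.

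In uterus 4 of 7 genes were lower in Prom1-positive cells, where 5.64% of all genes were. Thbs2 was at 4.53, 5.24, 6.14 and 5.05 in positive and at 7.79, 7.54 and 7.89 in negative cells, a difference of -2.50 (SE 0.37, adjusted p = 3.26e-06). Vcan was at 6.27, 7.52, 7.32 and 6.91 against 9.83, 9.69 and 9.30, a difference of -2.60 (SE 0.46, adjusted p = 7.86e-05). For both, every positive sample lay below every negative one. With a dimmer Vcan probe set the difference was not called (-1.306, adjusted p = 0.153).

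Postn (-2.14, adjusted p = 0.00576) and Tnc (-1.93, adjusted p = 0.0303) were called too, while Fn1 (-1.29, adjusted p = 0.131) and Sparc (-1.12, adjusted p = 0.396) were not, although their groups did not overlap. With only the uterine samples in the fit both were called (adjusted p = 0.000786 and 0.0103). The Tnc call was lost without any of Prom1-positive samples 1, 3 or 4 or Prom1-negative samples 1 or 3 (adjusted p = 0.0719, 0.104, 0.0578, 0.142 and 0.0858), and that of Postn without Prom1-negative sample 2 (-1.85, adjusted p = 0.0622). The share of all genes called higher in the uterine sort is not given here. By limma 2936 of the 14081 genes tested there had an unadjusted p under 0.05 in either direction. Macrophage markers were higher in 6 of 7 in the positive cells, with a mean log2 signal of 10.62 to 11.33 against 7.48 to 7.94, and fibroblast markers were lower in 3 of 7. The Actb measure averaged 0.814 in positive and 1.54 in negative samples. The part of these in the result was not tested.

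Lung and liver each gave a smaller set. In lung only Vcan was called lower, 1 of 7 genes where 1.11% of all genes were. Its 3 positive samples had 4.03, 5.40 and 3.32, all below the 7 negative ones (lowest 5.49, median 5.81, highest 7.16), a difference of -2.02 (SE 0.42, adjusted p = 0.00362). It was lost without Prom1-positive sample 4 (-1.56, adjusted p = 0.138), with all 117 samples in the fit or with lung samples only (adjusted p = 0.0974 and 0.146). With a dimmer Vcan probe set the difference was not called either (-0.546, adjusted p = 0.894). Tnc (-0.89, adjusted p = 0.7) was called without Prom1-positive sample 1 (-1.93, adjusted p = 0.0424). The Actb measure averaged 1.05 in positive and 0.574 in negative samples, and that of Gapdh 0.951 and 0.562. The share of all genes called higher in the lung sort is not given here, and 1346 of 14081 had an unadjusted limma p under 0.05. Fibroblast markers were lower in 2 of 7 and macrophage markers higher in 2 of 7 in the positive cells. The part of these in the result was not tested.

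In liver Postn and Sparc were lower in Prom1-positive cells, at -1.61 (SE 0.45, adjusted p = 0.00766) and -1.66 (SE 0.56, adjusted p = 0.0284), 2 of 7 where 16.5% of all genes were. Sparc was at 12.20, 9.74, 8.36 and 8.37 in positive cells, so sample 2 stood with the negative cells (lowest 10.54, median 11.45, highest 12.02) and the others below them. Its call was lost without Prom1-negative sample 1 or Prom1-positive sample 3, 4 or 5 (adjusted p = 0.058, 0.0731, 0.186 and 0.181), as it was with liver samples only (adjusted p = 0.0805) or with the other Sparc probe set (adjusted p = 0.0837), and both calls were lost after repeated quantile normalization (adjusted p = 0.0553 and 0.102). Without arrays with an upper quartile under 6, which include positive samples 2 and 3, Sparc was at -2.957 (adjusted p = 0.000233). That fit kept only the positive samples with the lowest Sparc, at 8.36 and 8.37. The Actb measure averaged 1.54 in positive and 0.606 in negative samples, the same for Gapdh 1.14 and 0.603, and positive sample 2 correlated with its group at 0.854. Endothelial markers were lower in 6 of 7 and macrophage markers in 6 of 7 in the positive cells. The part of these in the result was not tested.

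In stomach and intestine no gene was called (0 of 7), against 3.17% and 0.199% of all genes. At an unadjusted p under 0.05 the count was 1 in stomach, Ltbp2 at 0.0454, and 0 in intestine. In stomach Fn1 differed by 1.05 and was called without 1 of the 2 Prom1-negative samples numbered 2, the one at 7.01 (1.72, adjusted p = 0.0335). The 95% interval of Postn in stomach was -1.08 to 1.12 and that of Vcan in intestine -1.18 to 0.60.

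Averaged over 6 tissues 5 of 7 genes were lower in Prom1-positive cells, where 8.56% of all genes were: Vcan at -1.62 (SE 0.18, adjusted p = 7.50e-09), Postn at -1.37 (SE 0.21), Thbs2 at -0.94 (SE 0.14), Sparc at -0.83 (SE 0.26) and Tnc at -0.82 (SE 0.23). Fn1 differed by -0.27 and Ltbp2 by 0.28. The difference depended on the tissue for Vcan (interaction adjusted p = 4.69e-07), Postn (4.79e-06), Thbs2 (1.47e-05), Fn1 (0.000132) and Sparc (0.00889), and 21.2% of all genes had such an interaction. The Sparc mean was lost without lung Prom1-positive sample 2, prostate Prom1-positive sample 3, intestine Prom1-positive sample 2 or stomach Prom1-positive sample 1 (adjusted p = 0.0546, 0.0508, 0.0543 and 0.051), and the Tnc mean with all 117 samples in the fit or with the mean of both Tnc probe sets (adjusted p = 0.0505 and 0.0783).

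**Figure D4:**
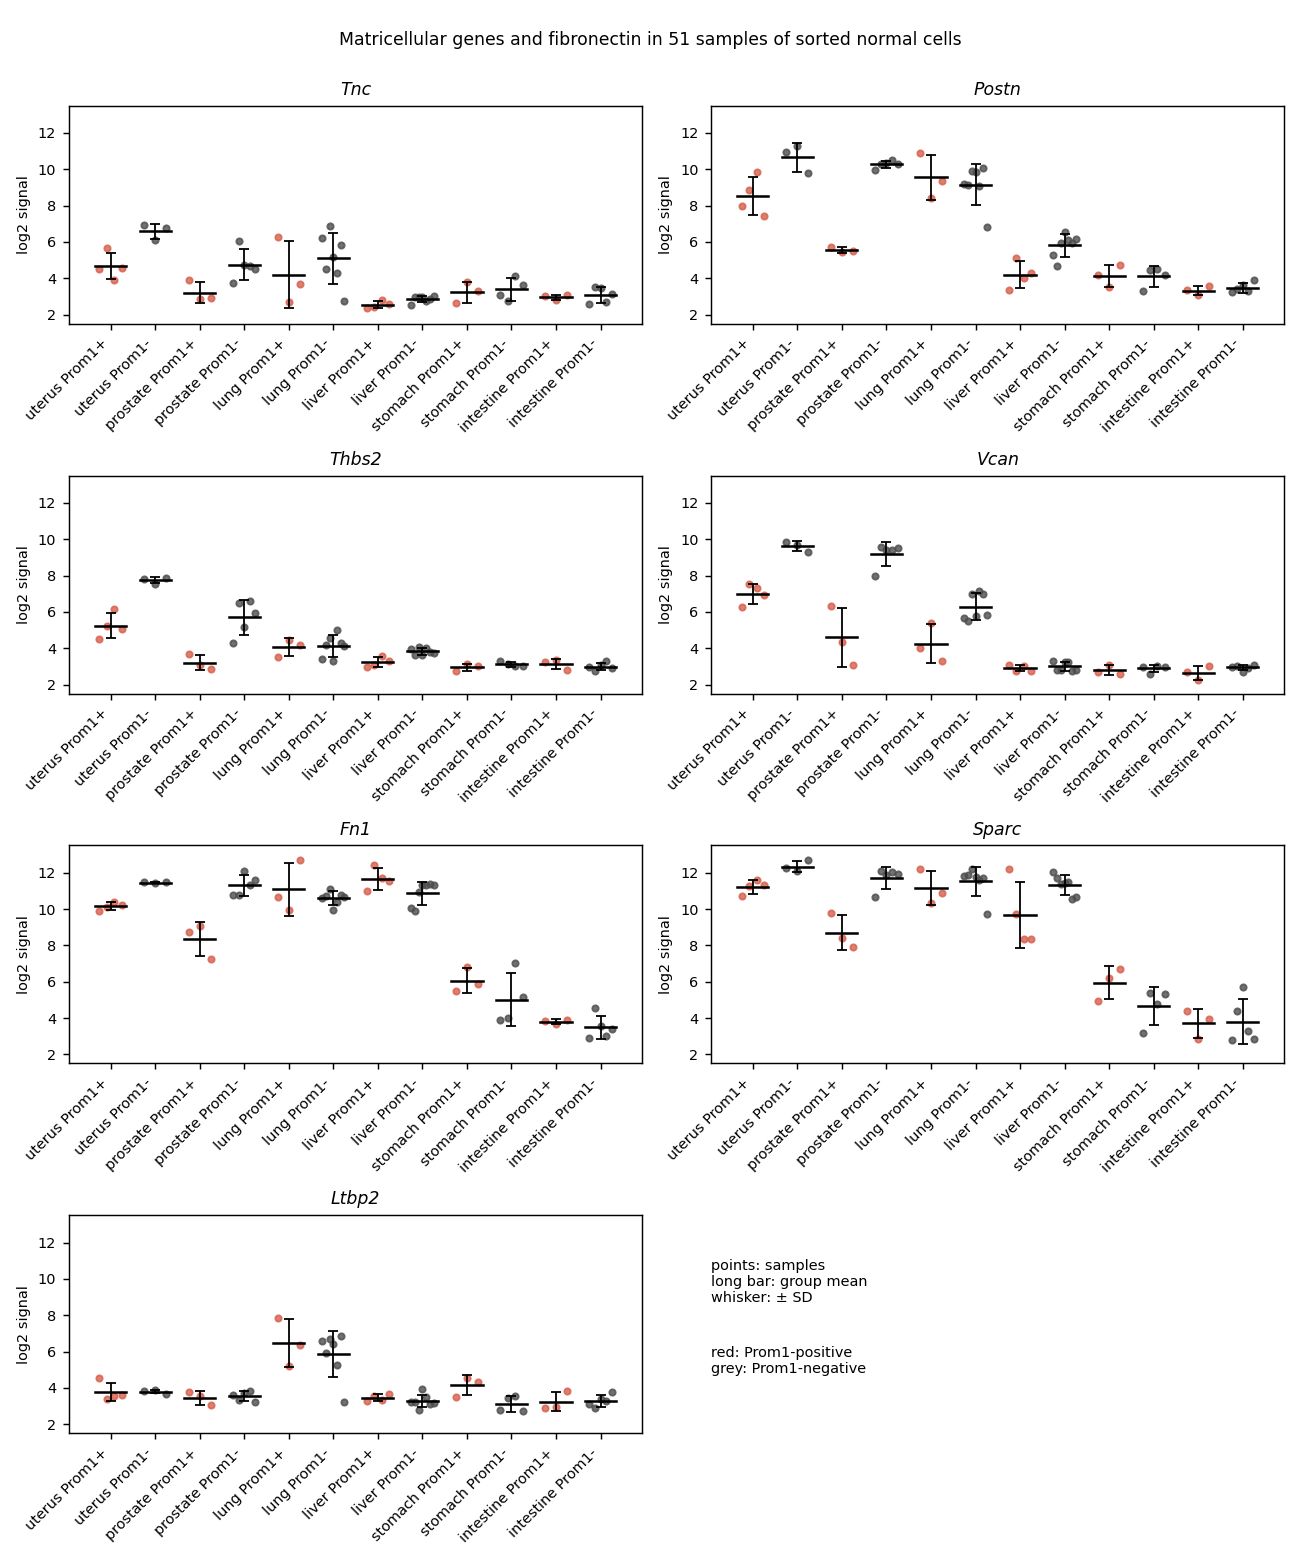
Log2 signal of 7 genes (panels) in 51 samples of sorted normal cells, 1 point a sample, with Prom1-positive cells in red and Prom1-negative cells in grey, and the mean and SD of each group. In prostate Postn has a mean of 5.56 in positive and 10.27 in negative cells, and in stomach and intestine Vcan stays between 2.24 and 3.10.

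Genes that share a family or pathway with these proteins were counted the same way. Over all genes, 5.98% were lower in Prom1-positive cells of prostate and 5.64% in those of uterus, and 36.7% and 28.8% were called in either direction in prostatic and uterine tumours against normal cells. Of the thrombospondin, tenascin and SPARC relatives, 7 of 11 tested were lower in Prom1-positive cells of prostate (median -1.83) and 7 of 11 of uterus (median -1.98), among them Smoc2 (-4.31 and -2.69) and Fstl1 (-3.76 and -2.37). In tumours the same list split: in prostate 1 was higher, Smoc2 by 2.76, and 4 were lower, and in uterus 1 was higher and 4 lower. Among the latent TGF-beta binding proteins, fibrillins and fibulins 6 of 8 were lower in Prom1-positive prostate cells, including Ltbp1 at -3.61, whereas 1 of 9 was higher and 4 lower in prostatic tumours.

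In gastric tumours, where 35% of all genes were called higher and 58.1% in either direction, the genes called higher were 8 of 9 latent TGF-beta binding proteins and relatives, 8 of 9 TGF-beta ligands, receptors and early targets (Tgfb3 by 3.85 and Tgfb1 by 2.44), and 11 of 14 surface receptors, with Itgb1, the integrin chain that pairs with many fibronectin receptors, by 3.03. Of the CCN proteins, Ccn2, a matricellular target of TGF-beta and YAP, was higher by 8.55 in stomach and by 2.10 in uterus, and Ccn1 by 1.995 in stomach but lower, at -2.27, in uterus. The versican-cleaving proteases were lower in 4 of 5 in Prom1-positive prostate cells and higher in 4 of 6 in gastric tumours, with 1 lower. Hyaluronan matrix genes were mixed, with 4 higher and 3 lower of 8 in gastric and 0 higher and 4 lower of 8 in prostatic tumours.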

How the data were processed

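Arrays were processed upstream with RMA and Partek 6.6, per the submitters' processing notes, and the deposited values are log2 signals of 45141 probe sets in 117 samples. They were used without further normalization. Whether a batch was corrected is not given in the sources used here. Probe sets with 1 gene symbol (28898) were used, those with several (551) or none (15692) were not, and 28689 symbols were updated by Entrez identifier through RefSeq (GRCm38.p6). The probe set with the highest mean stood for a gene. The genes, lists and tests were chosen with earlier results of these data known.

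Group means were fitted with limma 3.58.1 in R 4.3.3 (lmFit, eBayes, two-sided), with Benjamini-Hochberg adjustment over all genes tested and a threshold of 0.05, over 51 sorted samples (14081 genes), all 117 (14663) or 66 tumours (13456). The labels' tissue and Prom1 fields set the groups. Genes named beyond the measured 7 were members of the listed families and marker lists, and those with the most similar profile. The fits were tested on simulated data. Alternatives covered normalization, filters, probe sets, weights, blocks, references and each sample left out. Figures were drawn with Python 3.11.15 and matplotlib 3.10.9, and tables were read with the R package of version 1.17.8 named data.table. Sorted samples were not paired by title number in the main fit.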

Additional observations from a re-analysis of the deposited data

Results flagged for a closer look

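Of 70 sets of a gene in a group of 4 to 10 samples, 6 had 1 sample far from the others, and chance gives about 1 in 20. Skin tumour 5 was the lowest of its group for Fn1 (7.46) and Vcan (4.03). Lung Prom1-negative sample 7 was lowest for Postn (6.81) and Sparc (9.74), and prostate Prom1-negative sample 1 for Sparc (10.66) and Vcan (8.0).

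The effect of Prom1 status differed between tissues, by the interaction test, for Fn1 (adjusted p = 0.000132), Postn (4.79e-06), Thbs2 (1.47e-05), Sparc (0.00889) and Vcan (4.69e-07). The effect of tumour state differed between organs for Tnc (7.26e-15), Fn1 (2.72e-27), Postn (2.25e-18), Thbs2 (6.96e-13), Sparc (3.75e-21), Vcan (6.35e-15) and Ltbp2 (6.66e-09).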

How the results depend on the processing

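Of 9317 results for single genes under other settings, 9176 kept their side of the threshold, among them 82 uncalled differences whose sign changed. Another 98 lost a call, 36 gained one and 7 changed sign. Each of these 7 was called either as reported or under the other setting, never under both. The cause of these changes was not tested. Against Prom1-negative cells the prostate differences of Postn, Sparc and Vcan turned to -0.598, -0.351 and -1.669. The second Tnc probe set gave -0.343 in liver tumours and -0.083 in prostatic tumours against other types. A dimmer Vcan probe set gave -2.035 in uterine tumours, where it was called lower (adjusted p = 6.19e-05), and -0.219 in the mean of 5 organs. Counts of genes called, of 7, moved as follows. In the lung sort the count of 1 became 0 without arrays with an upper quartile under 6, with all 117 samples, with lung samples only and with the replicate block, and 2 with array weights (0 to 2 with a sample left out). In the liver sort the count of 2 became 0 after repeated quantile normalization and 1 with the replicate block (1 to 2 with a sample left out). In the stomach sort the count of 0 became 1 with blocks of neighbouring sample codes (0 to 1 with a sample left out). In liver tumours the count of 4 became 1 with the upper quartile as covariate and 2 with array weights or Prom1-positive cells as reference (2 to 4 with a sample left out). In uterine tumours the count of 4 became 2 with Prom1-negative and 6 with Prom1-positive cells as reference. In prostatic tumours against other types the count of 6 became 3 with the upper quartile as covariate. The replicate block by title number lowered the count of interactions from 5 to 3. Of 19 same-numbered pairs, 7 correlated above 0.1. With so few samples in a group, these correlations cannot decide whether the numbers pair the samples.

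Low signal limits the dim groups: levels of Tnc, Thbs2, Vcan and Ltbp2 under the array median can be background, so differences against them are uncertain in size. Every tumour comparison with normal cells also compares frozen pieces with sorted suspensions.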
